A study of Homo sapiens with 24 samples.

Results

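The long intergenic noncoding RNAs with LINC symbols were followed in small RNA and ATAC-seq count tables of HEK293 cells that overexpressed a nuclear lamin. Members were all lncRNA intervals whose name is LINC followed only by digits. The rule used the annotation and no measured value, although it was chosen with earlier results of these data known. It gave 10611 of the 175946 annotated intervals and 2006 of the 99452 names. The same intervals were taken from the ATAC table, where each count covers the interval and 125 bp on either side. HEK293 is an established human embryonic kidney line, labelled as wild type in all groups. The control group overexpressed eGFP (called GFP below), and the other groups overexpressed LMNA, LMNB1 or LMNB2. The 3 genes encode the A-type lamins and both B-type lamins, filament proteins of the nuclear lamina, the layer that lines the inner nuclear membrane and binds chromatin. Each group had 3 small RNA libraries and 3 ATAC libraries, 24 in all, and the cells for small RNA were collected separately from those for ATAC. The labels do not say how overexpression was achieved or whether replicates were separate cultures, so p-values measure only the spread between these samples, which may be technical.

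LINC is the symbol class for long intergenic noncoding RNA genes, which are transcribed by RNA polymerase II from between protein-coding genes and are often spliced, polyadenylated and specific to a cell type. Some act in the nucleus on chromatin or on neighbouring genes, some host microRNAs or small nucleolar RNAs, and some were later found to encode small proteins. A library of small RNA does not contain the full-length transcript, so the counts are of short RNAs that map inside these intervals, which include fragments and any other small RNA encoded there. ATAC-seq measures where a transposase can insert into DNA, a readout of open chromatin.

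Promoters were read from RefSeq (GRCh38.p14), 250 bases before to 50 bases after each gene's start, and 1298 of the 2006 names were matched. A GC box (GGGCGG or CCGCCC, either strand) occurred in 18% of these LINC promoters and in 44.6% of all 27303 promoters. A TATA box (TATAAA or TTTATA) occurred in 16.3% against 12%, and a CCAAT box (CCAAT or ATTGG) in 36.7% against 35.7%. Promoters are printed, as examples, for some of the names whose counts differed between groups below. RefSeq held promoters for 8 names higher and 2 lower in LMNB2 small RNA, and for 9 called in ATAC between LMNB1 and LMNA. Their starts need not be those of the called intervals. The LINC00664 promoter lies inside its called interval, and those of LINC01435 and LINC02661 lie outside the called window with the lowest p. LINC01535 (chr19:37251635-37251934, + strand) and LINC00664 (chr19:21483465-21483764, + strand) were higher in LMNB2 small RNA. LINC01725 (chr1:83860947-83861246, - strand) was lower there. LINC01435 (chr10:108069244-108069543, - strand) and LINC02661 (chr10:108708289-108708588, + strand) differed in ATAC. Capitals mark matches to the 3 boxes, and a match is a description and not a shown binding site.
LINC01535: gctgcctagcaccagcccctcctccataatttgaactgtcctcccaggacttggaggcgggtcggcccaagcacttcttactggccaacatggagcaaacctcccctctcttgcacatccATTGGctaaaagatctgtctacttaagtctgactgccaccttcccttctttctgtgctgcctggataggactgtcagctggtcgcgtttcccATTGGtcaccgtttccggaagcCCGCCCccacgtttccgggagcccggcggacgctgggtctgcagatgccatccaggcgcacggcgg
LINC00664: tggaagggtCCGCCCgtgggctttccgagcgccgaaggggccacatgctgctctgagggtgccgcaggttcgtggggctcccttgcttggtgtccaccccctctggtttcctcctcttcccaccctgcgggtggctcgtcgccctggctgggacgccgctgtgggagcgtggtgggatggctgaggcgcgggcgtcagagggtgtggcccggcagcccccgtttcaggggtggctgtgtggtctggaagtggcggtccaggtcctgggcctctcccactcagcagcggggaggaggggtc
LINC01725: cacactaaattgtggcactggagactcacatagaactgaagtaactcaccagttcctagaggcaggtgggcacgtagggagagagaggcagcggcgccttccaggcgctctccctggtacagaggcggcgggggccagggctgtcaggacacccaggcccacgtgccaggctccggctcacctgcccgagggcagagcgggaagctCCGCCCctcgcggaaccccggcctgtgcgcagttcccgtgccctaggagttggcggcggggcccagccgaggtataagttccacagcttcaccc
LINC01435: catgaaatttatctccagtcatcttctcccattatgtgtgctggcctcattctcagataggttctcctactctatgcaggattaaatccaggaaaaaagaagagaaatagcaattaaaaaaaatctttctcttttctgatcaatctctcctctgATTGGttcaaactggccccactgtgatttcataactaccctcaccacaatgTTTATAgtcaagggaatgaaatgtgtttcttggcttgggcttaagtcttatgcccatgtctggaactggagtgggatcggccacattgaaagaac
LINC02661: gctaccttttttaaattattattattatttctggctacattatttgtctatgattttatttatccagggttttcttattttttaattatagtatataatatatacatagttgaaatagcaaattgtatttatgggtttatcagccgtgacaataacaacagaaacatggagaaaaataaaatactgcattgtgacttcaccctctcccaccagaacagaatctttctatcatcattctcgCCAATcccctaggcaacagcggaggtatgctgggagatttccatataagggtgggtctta

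Because LINC intervals contain other small RNA genes, 4 mature microRNAs read from RefSeq (GRCh38.p14) are shown with their seed (bases 2 to 8) in capitals. Each lies within an interval whose count it contributes to. The gene of hsa-miR-30a-5p lies in 12 of 39 LINC00472 intervals and that of hsa-miR-9-5p in 27 of 43 LINC00461 intervals, both on the strand of the LINC gene. Those of hsa-miR-1246 and hsa-let-7i-5p lie on the opposite strand, in 1 of 15 LINC01117 intervals and 1 of 3 LINC01465 intervals. The 4 seeds are all different.
hsa-miR-30a-5p: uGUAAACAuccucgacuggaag
hsa-miR-9-5p: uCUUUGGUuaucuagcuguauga
hsa-miR-1246: aAUGGAUUuuuggagcagg
hsa-let-7i-5p: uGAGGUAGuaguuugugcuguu

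Total counts ran from 132507051 to 195074742 in the small RNA libraries and from 156043245 to 290158229 in the ATAC libraries. LINC intervals held 0.196 to 0.489% of the small RNA counts, lowest and highest in GFP replicates 1 and 3, and 5.60 to 6.34% of the ATAC counts. Intervals overlap and a read can be counted in several, so these are shares of summed counts and not of reads. The TMM scaling factors of the small RNA libraries were widest in the same GFP libraries (0.631 and 1.31). Mitochondrial counts made up 24.5 to 47.5% of ATAC libraries and were lowest in LMNB2. Without them, LINC intervals held 10.3 to 11.3% of the ATAC counts in GFP and 10.2 to 10.7% in LMNA. They held 9.10 to 9.62% in LMNB1 and 7.42 to 8.38% in LMNB2, a difference that was not tested. A feature over the LMNB1 gene had 118 to 135 small RNA counts per 1000000 (CPM) in the LMNB1 libraries and 1.05 to 1.43 elsewhere, and a feature over LMNB2 had 340 to 382 CPM in the LMNB2 libraries and at most 1.99 elsewhere. The highest feature over LMNA had a log2 fold change of -0.09 with LMNA (edgeR adjusted p = 0.995). It is a faint lncRNA interval with a mean of 8.25 counts, so it does not check the LMNA label. The lamin genes were not examined in the ATAC libraries, so the labels of those were not checked. MicroRNAs typical of HEK293 cells were present (MIR10A at 3869 to 38617 counts). The few markers looked up for other cells had at most 6 counts in any library. These were MIR142 and MIR223 for blood, MIR1-1 and MIR133A1 for muscle, MIR124-1 alone for neurons and MIR302A to MIR302D for pluripotent cells. Other microRNAs of those cell types were not examined as markers.

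LINC intervals were long and mostly thinly covered by small RNA. Their median length was 11.5 kb (0.257 to 767.5 kb), with 519 names holding 1 interval and LINC00511, the name with the most, holding 79. Intervals of 1 name overlap and share reads, so they are not independent, and counts below are given for names as well. In small RNA, 1062 intervals had 0 counts in all 12 libraries, which allows up to 3 counts, or 0.0169 to 0.0258 CPM, in a library. After the filter on low counts, 1724 intervals of 378 names were tested in small RNA, 16.2% of the members against 19.9% of other lncRNA intervals. In ATAC 10552 intervals of 2002 names were tested. Of the 2006 names, 1881 occur in RefSeq, and 90.6% of the intervals compared overlapped the RefSeq gene of that symbol. Although they are named intergenic, 970 intervals (9.14%) also overlapped a protein-coding gene.

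Most of the small RNA counted at LINC intervals came from other annotated small RNAs inside them. When each name was represented by its highest interval, the 10 highest names held 88.3% of the summed count, and 42 names that drew at least 50% of their count from 1 contained RNA held 85.1%. LINC00324, the highest, spans chr17:8172769-8223066 and contains SNORD118, the U8 small nucleolar RNA that acts in ribosomal RNA processing. SNORD118 had a mean of 68372 counts per library against 96141 for the interval (71.1%). Of the other contained RNAs, RNU11, a small nuclear RNA of the minor spliceosome, gave 99.9% of the count of LINC01715. SNORD7 gave 99.4% of LINC02001, and tRNA-Glu-TTC-3-1 gave 5688 of the 5691 mean counts of LINC01783. Contained RNAs on the opposite strand were counted too: tRNA-Asp-GTC-1-1 gave 99.7% of LINC02453 and tRNA-Cys-GCA-1-2 gave 99.8% of LINC02435. Over 68 pairs on opposite strands, the contained RNA was never above the LINC interval and gave a median 91.6% of its count, against 91.7% over 120 pairs on the same strand.

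Among tested names that drew at least 50% of their count from 1 contained RNA, 12 contained a tRNA gene, 9 a small nuclear RNA, 8 a ribosomal RNA, 5 a microRNA, 3 a small nucleolar RNA, 2 an SRP RNA and 2 a Y RNA. The microRNA hosts included LINC00472, where MIR30A gave 65.5% of the count, and LINC00461, LINC01117 and LINC02603. Per kb of length, the highest LINC interval in GFP was one of LINC01962, at 262 CPM per kb in GFP, and LINC00324 (56.9), LINC01783 (36.1) and LINC01715 (20.5) followed. Their order was not tested, and LINC01962 alone ranged from 65.4 to 285 CPM between the 3 GFP libraries. All 10 names highest per kb in GFP overlapped another annotated RNA.

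**Figure D1:**
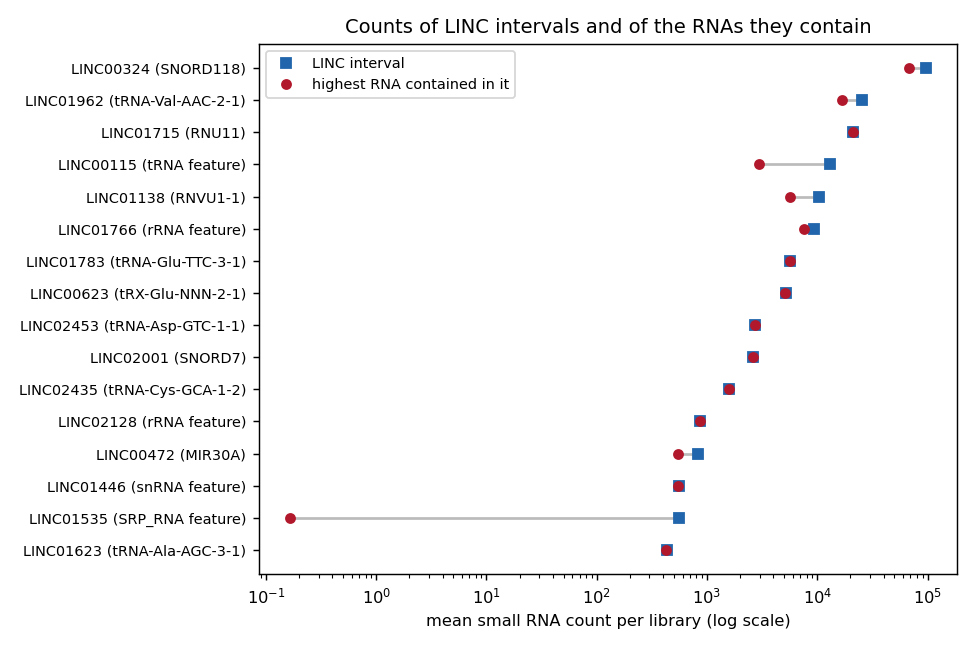
Mean small RNA count per library (horizontal log axis) of the highest interval of 16 LINC names with high counts (squares) and of the highest RNA contained in that interval (circles). For LINC01715, LINC01783, LINC02453, LINC02001 and LINC02435 the circle lies on the square, while the highest RNA contained in LINC01535 had a mean count of 0.167.

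LMNA and LMNB1 overexpression changed no LINC interval in small RNA past the threshold, an adjusted p under 0.05 (edgeR, quasi-likelihood, Benjamini-Hochberg over all 33893 tested features). Against GFP, 0 of 1724 intervals were called in LMNA (background over all features 0.0%) and 0 in LMNB1 (background 0.0384%). At an unadjusted p under 0.05 there were 93 and 125 intervals (5.39 and 7.25%, against 5.46 and 5.51% of all features), and DESeq2 called 0 in both. The median log2 fold change was -0.07 in LMNA and -0.03 in LMNB1, against -0.05 and -0.05 over all features. The lowest p in LMNA belonged to LINC01239, with 1.01, 0.853 and 0.935 CPM in GFP and 0.535, 0.601 and 0.673 in LMNA. These groups did not overlap, but the difference (log2 fold change -0.62 ± 0.16 SE) had an edgeR adjusted p of 0.742. LINC00582 (0.94) and LINC01731 (1.02) came next in LMNA, with edgeR adjusted p of 0.825 and 0.827. In LMNB1 the lowest p belonged to LINC01719, with 1.01, 0.750 and 0.828 CPM in GFP and 1.01, 1.69 and 1.58 in LMNB1 (log2 fold change 0.72 ± 0.19, edgeR adjusted p = 0.703). That interval draws 98.9% of its count from tRNA-Gln-CTG-8-2.

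LMNB2 overexpression changed 50 LINC intervals of 19 names in small RNA, 41 higher (15 names) and 9 lower (4 names), by edgeR's quasi-likelihood test. This is 2.90% of those tested, against a background of 2.66%, or 1.91% higher and 0.752% lower, so the share was near that of all features. At an unadjusted p under 0.05 there were 329, or 19.1% against 19.9% of all features. All 50 had their LMNB2 libraries apart from the GFP libraries, which 17.9% of tested members and 22.3% of all features also did. The median log2 fold change of members was 0.03, against -0.04 over all features. The higher intervals had mean counts of 5.92 to 116 and log2 fold changes of 0.65 to 1.49. The lower ones ranged from -1.30 to -0.76. Their median length was 275.6 kb against 28.6 kb for the higher and 67.8 kb for all tested. Repeated intervals of 1 name weigh on these medians: 4 of the 9 lower were of LINC00907 and 12 of the 41 higher of LINC01535. At the interval with the lowest p per name, lower names spanned 114 to 536 kb and higher names 3.8 to 363 kb, which overlap. In bulk samples, fewer cells with an RNA and less RNA per cell cannot be told apart.

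The count of calls depended strongly on single libraries and on the model. It was 88, 7 and 100 without GFP replicates 1, 2 and 3, and 5, 2 and 3 without LMNB2 replicates 1, 2 and 3. It was 29 and 32 without LMNA replicates 1 and 2, and 26, 24 and 29 without LMNB1 replicates 1, 2 and 3. A fit of only the 6 GFP and LMNB2 libraries called 0, with 280 at an unadjusted p under 0.05. DESeq2 called 50, of which 20 were shared, and split them 19 higher and 31 lower, and with total counts as the only scaling 11 were called, all higher. Followed at the interval with the lowest p of each called name, LINC01534 and LINC02177 were called by edgeR in all 12 fits that left out 1 library, and no other name was. With the 6 libraries alone their adjusted p was 0.0627 and 0.0727.

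LINC01534 had the lowest adjusted p. Its interval with the lowest p (chr19:36657466-36717648, - strand) also lies over ZNF461 and ZNF567, genes of zinc finger proteins. Counts were 0.679, 0.661 and 0.490 CPM with GFP, 0.436, 0.566 and 0.444 with LMNA, 0.459, 0.459 and 0.545 with LMNB1 and 1.40, 1.56 and 1.31 with LMNB2. The 3 LMNB2 libraries were all above the other 9. The group means were 0.610 ± 0.104 in GFP and 1.42 ± 0.125 in LMNB2 (SD, n = 3), and the log2 fold change was 1.21 ± 0.17 (SE, edgeR adjusted p = 0.00186). Of its 8 intervals, all tested, 5 were called, with log2 fold changes of 0.96 to 1.24 over the 8. No other small RNA was annotated inside the interval with the lowest p.

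LINC02177 (chr16:9287150-9518463, + strand) had 0.0945, 0.0955 and 0.130 CPM with GFP, 0.118, 0.0897 and 0.105 with LMNA, 0.121, 0.110 and 0.128 with LMNB1 and 0.308, 0.313 and 0.263 with LMNB2. LMNB2 was again above all other libraries, with a log2 fold change of 1.35 ± 0.21 and an edgeR adjusted p of 0.00496. Of its 5 tested intervals 3 were called, with log2 fold changes of -1.93 to 1.38 over the 5. The 2 not called drew 85.5 and 93.6% of their count from a 5S ribosomal RNA feature, which lies outside the called intervals. The mean count of 24.5 per library rests on 11 to 23 counts in each GFP library and 37 to 51 in each LMNB2 library.

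LINC01535 and LINC00664, also on chromosome 19 and with promoters printed above, were higher in LMNB2 too. LINC01535 (chr19:37251860-37265560) had 0.0687, 0.0735 and 0.0732 CPM in GFP and 0.175, 0.147 and 0.178 in LMNB2, where the LMNA and LMNB1 libraries lay between 0.0428 and 0.0760. Its log2 fold change was 1.08 ± 0.24 (edgeR adjusted p = 0.0297), and 12 of its 18 tested intervals were called (0.57 to 1.22 over the 18). LINC00664 (chr19:21474833-21503451) was among the faintest, with 0.0172, 0.0220 and 0.0225 CPM in GFP and 0.0784, 0.0960 and 0.0710 in LMNB2. Those values stand for 2 to 4 counts in a GFP library and 10 to 15 in an LMNB2 library (log2 fold change 1.49 ± 0.35, edgeR adjusted p = 0.0344), and no other of its 11 intervals had enough counts to be tested. LINC02569 on chromosome 6 (1.34 ± 0.32, edgeR adjusted p = 0.0362) and LINC00115 on chromosome 1 (1.37 ± 0.35, 0.0472) were also higher, at 0.0338 to 0.0515 and 0.0147 to 0.0344 CPM in GFP. Each was called at 1 interval, of 3 tested for LINC02569 (1.17 to 1.34 over the 3) and of 8 for LINC00115 (0.04 to 1.37).

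LINC02641, LINC00895 and LINC00310 were higher on other chromosomes. LINC02641 (chr10:123356425-123517733) had 0.601, 0.514 and 0.473 CPM in GFP and 0.766, 0.896 and 0.853 in LMNB2 (0.65 ± 0.15, edgeR adjusted p = 0.0325). LINC00895 on chromosome 22 rose by 0.79 ± 0.16 on the log2 scale (edgeR adjusted p = 0.0217), and its interval also covers UFD1, CDC45 and CLDN5. LINC00310 on chromosome 21 had 0.103, 0.0882 and 0.152 CPM in GFP and 0.259, 0.333 and 0.263 in LMNB2, without overlap (1.20 ± 0.24, edgeR adjusted p = 0.0217), and all 3 of its tested intervals were called. The remaining 6 higher names were LINC01343, LINC01208, LINC01714, LINC00595, LINC01089 and LINC02422, at 0.91 to 1.11 in the interval with the lowest p. Most of their tested intervals were not called: 2 of 29 were for LINC01089 (0.12 to 1.07 over the 29), 1 of 3 for LINC02422 (0.08 to 1.11), 2 of 8 for LINC01208 (-0.23 to 1.13), 2 of 5 for LINC01714 and 5 of 11 for LINC00595. LINC01089 lies over SETD1B, which encodes a histone H3 methyltransferase. Of the 50 called intervals, 9 (18%) lay over a protein-coding gene, against 19% of those tested.

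Lower names were LINC01725, LINC00907, LINC01239 and LINC01473. LINC01725 (chr1:83747430-83861064) had 0.223, 0.176 and 0.203 CPM with GFP, 0.149, 0.152 and 0.0994 with LMNA, 0.115, 0.147 and 0.0870 with LMNB1 and 0.0844, 0.0512 and 0.0853 with LMNB2. All 9 lamin libraries were below the GFP libraries, but only the LMNB2 difference passed (-1.30 ± 0.26, edgeR adjusted p = 0.0217), against -0.55 in LMNA and -0.73 in LMNB1. LINC01239 on chromosome 9, whose interval also covers DMRTA1, a transcription factor gene, had 0.507, 0.569 and 0.433 CPM in LMNB2, below its GFP values given above (-0.87 ± 0.16, edgeR adjusted p = 0.0153). LINC00907 on chromosome 18 had 0.172, 0.228 and 0.208 CPM in GFP and 0.0905, 0.0960 and 0.121 in LMNB2 (-0.92 ± 0.22, 0.0375). LINC01473 on chromosome 2 fell by 0.81 on the log2 scale (edgeR adjusted p = 0.0362). The called intervals were 2 of 9 tested for LINC01725 (-1.30 to -0.32 over the 9), 4 of 16 for LINC00907 (-0.95 to -0.58), 1 of 5 for LINC01239 (-1.01 to -0.14) and 2 of 6 for LINC01473 (-0.81 to -0.63).

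**Figure D2:**
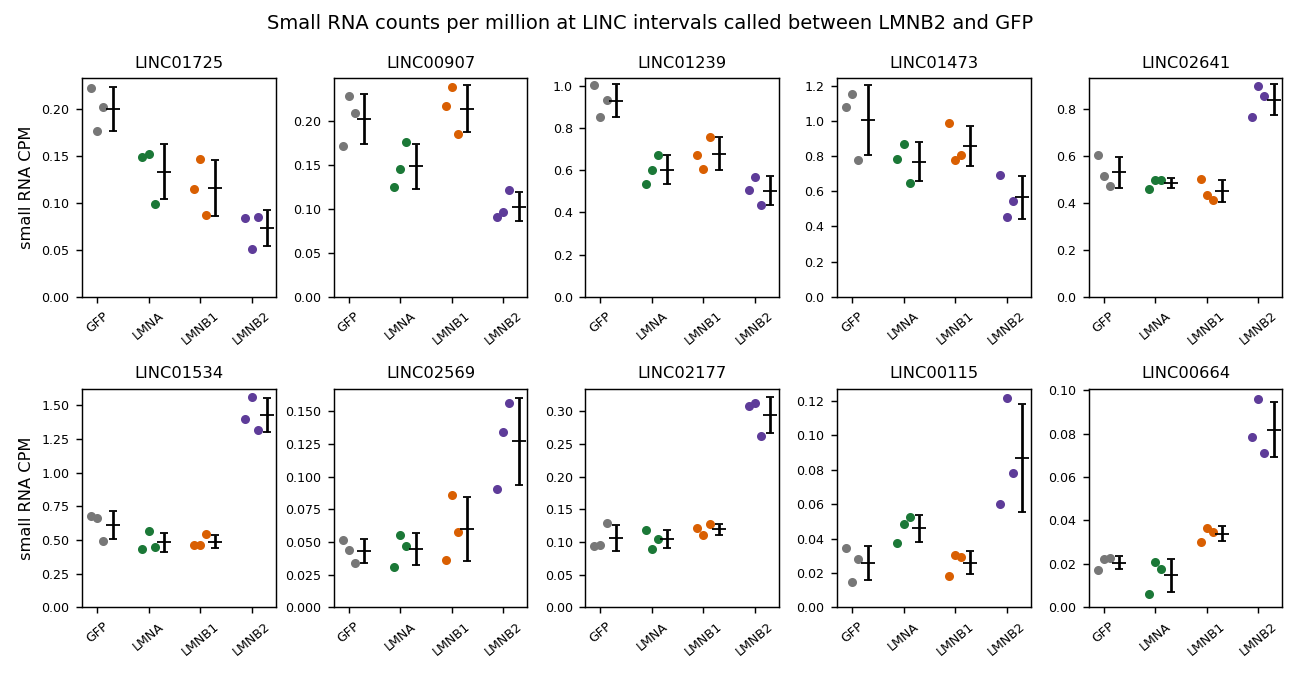
Small RNA CPM (vertical axis, from 0) of 10 LINC intervals called between LMNB2 and GFP, 1 point per library, with the group mean and SD (n = 3) as a bar at the right of each group. In LINC01534, LINC02177 and LINC00664 the LMNB2 points lie above all 9 others, and in LINC01725 the lamin points lie below the GFP points.

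Contained small RNAs gave little of the count of the called names at their interval with the lowest p. Annotated RNAs inside that interval gave at most 1.37% of its count except in LINC01714, where a U1 snRNA feature gave 28.7%. None of the 177 tested intervals that drew at least 50% of their count from 1 contained RNA was called in LMNB2, and their median log2 fold change was -0.50. Calls made up 2.62% of the 688 tested intervals that overlap another RNA and 3.09% of the 1036 that do not. The microRNA hosts LINC00472 and LINC00461 had log2 fold changes of -1.66 and -1.37 in LMNB2, with edgeR adjusted p of 0.153 and 0.166. LINC00472 had 2.75, 4.45 and 17.9 CPM in GFP and 2.68, 2.77 and 2.49 in LMNB2, so the difference was largest against GFP replicate 3. LINC01766, over a ribosomal RNA feature, had 45.9, 55.7 and 53.4 CPM in GFP and 73.3, 79.6 and 84.5 in LMNB2, which did not overlap (0.61 ± 0.21, edgeR adjusted p = 0.114).

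By chromosome, LINC calls in LMNB2 were most numerous on chromosome 19, which held 18 of the 41 higher intervals, from 3 names, or 14.5% of its 124 tested intervals against 13.5% of all its features. The median log2 fold change of LINC intervals there was 0.08, below the 0.42 of all features. On the gene-dense chromosomes 16, 17, 19, 20 and 22, 22 of 302 tested intervals were called, all higher. This is 7.28% against 6.27% of all features there called in either direction, with a median of 0.17 against 0.24. Per library, the median level of these intervals relative to the GFP mean was -0.20, 0.10 and 0.03 in GFP and 0.24, 0.14 and 0.29 in LMNB2 (log2), without overlap. On the gene-poor chromosomes 4, 13 and 18, 4 of 149 were called, all of LINC00907 and lower. This is 2.68% against 1.66% of all features there called in either direction. The medians of LINC intervals were lowest on chromosomes 10 (-0.57) and 18 (-0.53), against -0.12 and -0.19 for all features, while 6 intervals of 2 names on chromosome 10 were called higher. Few names stand behind a chromosome's median (14 on chromosome 10 and 12 on chromosome 18), and no chromosome was tested against another. With total counts as the only scaling the median of all small RNA features moved from -0.04 to 0.19 and that of LINC intervals from 0.03 to 0.25, so the sign of a chromosome's median is relative to the scaling.

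**Figure D3:**
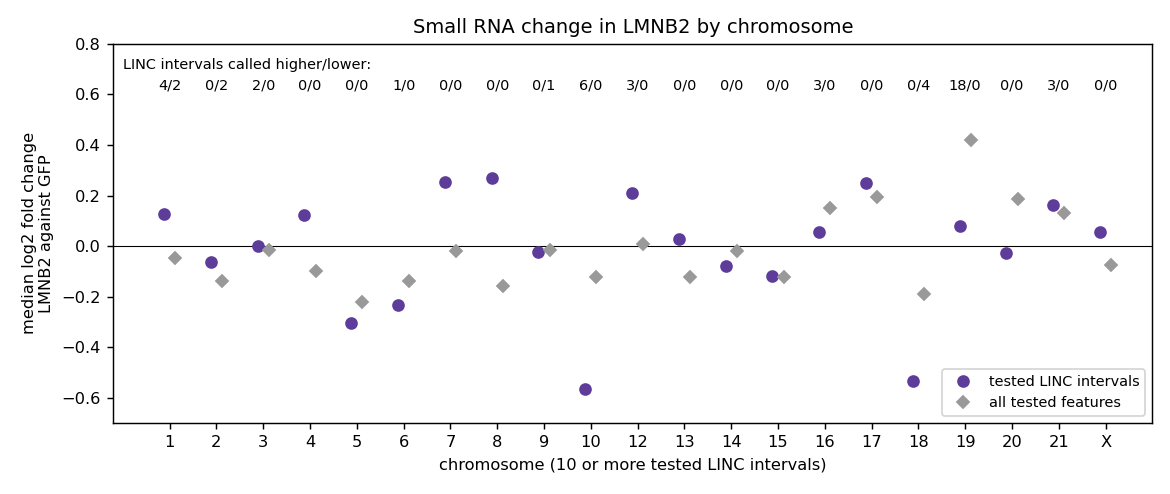
Median log2 fold change of LMNB2 against GFP in small RNA (vertical axis) for tested LINC intervals (circles) and all tested features (diamonds), by chromosome, with the LINC intervals called higher and lower above. On chromosome 19, with 18 higher calls, the LINC median of 0.08 lies below the all-feature median of 0.42.

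The lamins were also compared with each other in 1 joint test that does not use GFP as the reference. In small RNA 37 LINC intervals of 11 names differed (background 1.93%, members 2.15%), and LMNB2 was the highest lamin in all 37. Of these 37 intervals, 27 from 9 names were also among the 50 called against GFP. LINC01534 had the lowest adjusted p (3.33e-05), followed by LINC02177 (0.00184), LINC02641 (0.00512) and LINC01535 (0.00599), all by edgeR. LINC01224 on chromosome 19, over ZNF91, was the 1 name called here and not against GFP (0.0220). It had 0.825, 1.12 and 0.806 CPM with GFP, 0.635, 0.739 and 0.702 with LMNA, 0.809, 0.667 and 0.830 with LMNB1 and 1.10, 1.21 and 1.34 with LMNB2. The LMNB2 and GFP libraries overlapped, and that difference was 0.41 ± 0.16 (edgeR adjusted p = 0.181). Leaving out GFP replicate 3 gave 124 calls, leaving out LMNB1 replicates 2 and 3 gave 17 and 18, and there were 12, 14 and 9 without LMNB2 replicates 1, 2 and 3. LMNB1 against LMNA alone called 0 LINC intervals in small RNA by edgeR (background 0.0118%), with 84 at an unadjusted p under 0.05 (4.87% against 5.74% of all features), and DESeq2 was not run for this pair.

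In ATAC, the density of LINC windows relative to their surroundings varied widely around a median near 1. The median count per kb in the window was 1.06 times that in the 5000 bp flanks, and 45.0% of windows were below their flanks. At 590 windows of 241 names the ratio was 5 or more, with the maximum of 320 at LINC00486. Over all windows the median ratio was 1.07 in each group, and over the 590 it was 8.58 ± 1.01 with GFP, 8.74 ± 0.46 with LMNA, 8.34 ± 0.78 with LMNB1 and 8.21 ± 0.36 with LMNB2 (SD, n = 3), differences within the spread of the libraries. A GC box occurred in 43.3% of the promoters of names with such a window and in 3.45% of those whose windows were all in the lowest of 5 equal groups by CPM per kb. The latter promoters had a TATA box in 28.1% and a median GC content of 40.3%, against 8.67% and 56.2% for the former. Both sets were chosen on ATAC values, so these are descriptions.

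Per kb, the LINC windows with the highest ATAC CPM in GFP were those of LINC00115 and LINC00486, then LINC00863, LINC01170, LINC01011 and LINC00910. Whether the counts of the first 2 come from open chromatin was not tested. The LINC00115 window (chr1:627230-629159) had 63.0, 93.6 and 82.5 CPM with GFP, 57.2, 77.8 and 75.6 with LMNA, 55.4, 52.6 and 45.6 with LMNB1 and 39.7, 53.0 and 35.6 with LMNB2. The LMNB1 and LMNB2 libraries were all below the GFP libraries, at -0.64 and -0.90 on the log2 scale, with edgeR adjusted p of 0.978 and 0.821. The mitochondrial share of counts moved in the same direction, from 39.9 to 47.5% in GFP to 24.5 to 30.7% in LMNB2, and its part in the result was not tested. The flanks of this window had 319 CPM per kb against 31.6 in the window. LINC00486 had 661 to 990 CPM over the 12 libraries, with overlapping groups.

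No lamin changed a LINC window against GFP in ATAC by edgeR's test over 163786 windows. The calls were 0 in LMNA (background 0.000611%), 0 in LMNB1 (background 0.00305%) and 0 in LMNB2 (background 0.00244%). At an unadjusted p under 0.05 there were 699, 554 and 540 of 10552 (6.62, 5.25 and 5.12%, against 5.19, 4.78 and 5.72% of all windows), and DESeq2 called 6, 4 and 6. Without GFP replicate 3, 45 were called in LMNA. Median log2 fold changes were 0.00, -0.01 and 0.02. The lowest p in LMNA belonged to LINC02405 (0.51 ± 0.11, edgeR adjusted p = 0.244), in LMNB1 to LINC02541 (-0.71 ± 0.16, 0.978) and in LMNB2 to LINC02054 (-0.32 ± 0.08, 0.748). LINC02541 had 0.739, 0.762 and 0.723 CPM in GFP and 0.426, 0.505 and 0.413 in LMNB1, without overlap.

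Among the lamins, 14 LINC windows of 7 names differed in the joint test (0.133% against a background of 0.0916%), and LMNA was the highest in all 14 and LMNB1 the lowest in 13. LINC01720 (window chr1:190624740-190801808) had the lowest adjusted p, 0.0195 by edgeR. It had 4.52, 4.89 and 5.36 CPM with GFP, 6.66, 5.90 and 6.26 with LMNA, 4.11, 4.12 and 4.95 with LMNB1 and 5.12, 5.29 and 4.94 with LMNB2. The 3 LMNA libraries lay above all others. LINC02405 (chr12:126975689-127060561) had 3.50, 3.29 and 3.74 CPM in LMNA and 2.05, 2.14 and 2.68 in LMNB1, with GFP at 2.21 to 2.77 and LMNB2 at 2.37 to 2.92 (edgeR adjusted p = 0.0287). LINC02578 (0.0368), LINC02055 (0.0383), LINC01320 (0.0383), LINC01435 (0.0397) and LINC02661 (0.0478) followed, all by edgeR.

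The joint result rested on few libraries. It was 98, 3 and 85 without GFP replicates 1, 2 and 3, and 0 without any of the 3 LMNA libraries. Without LMNB1 replicates 1, 2 and 3 it was 0, 0 and 165, and without LMNB2 replicates 1 and 3 it was 0 and 9. DESeq2 called 107 windows, among them all 14. With total counts as the only scaling 5 windows of 1 name were called, none of them among the 14.

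**Figure D4:**
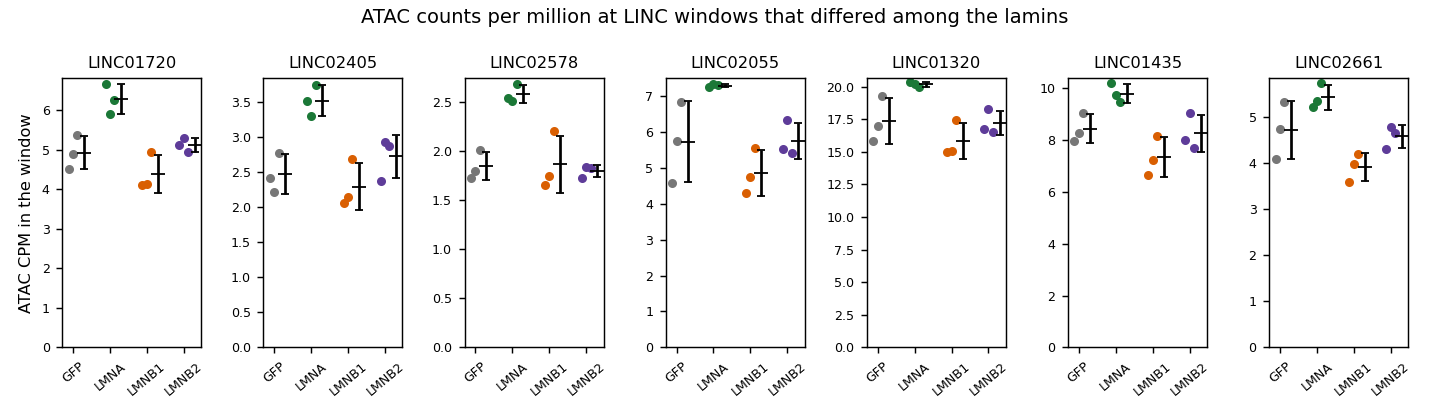
ATAC CPM (vertical axis, from 0) in the windows of the 7 LINC names that differed among the lamins, 1 point per library, with the group mean and SD (n = 3) as a bar at the right of each group. The LMNA points lie above the LMNB1 points in every panel.

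LMNB1 was then compared with LMNA directly, a comparison added after the joint result was seen. It called 51 LINC windows of 20 names on 11 chromosomes, all lower in LMNB1 (0.483% against a background of 0.223%, or 0.221% for lower windows), with log2 fold changes of -0.75 to -0.35. Chromosome 12 held 16 of these windows, from 3 names. The called windows were long, with a median of 129 kb against 11.9 kb over all tested members. They were thinly covered per kb, with a median of 0.0330 CPM per kb against 0.0847. Per window they held more counts, a median of 914 against 330. Against GFP, their median log2 fold change was 0.35 in LMNA and -0.16 in LMNB1, and none passed. The count fell to 4, 4 and 0 without LMNA replicates 1, 2 and 3 and to 0 without LMNB1 replicate 1 or 2. It was 230 without LMNB1 replicate 3, 139 and 150 without GFP replicates 1 and 3, and 32 without LMNB2 replicate 1. It was 0 with total counts as the only scaling, which moved the median of all windows from 0.00 to 0.10. Those totals include mitochondrial counts, 39.4 to 44.1% in LMNA and 32.8 to 34.1% in LMNB1, whose part in this was not tested.

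When tested LINC windows were split into 5 equal groups by ATAC CPM per kb, 42 of the 51 calls lay in group 1, the lowest, which spans up to 0.0414 CPM per kb. Calls over all windows lay there too, 315 of 365, or 1.44% of the windows at that density against 1.99% of the LINC windows. There LMNB1 was below LMNA in 70.4% of windows, with a median difference of -0.12 (log2), against 63.1% and -0.08 over windows of all features at that density. In groups 2 to 5 the medians of LINC windows were 0.00, 0.04, 0.04 and 0.00. Per library, the median level of group 1 relative to the GFP mean was -0.14, 0.01 and 0.15 with GFP, 0.06, 0.02 and 0.16 with LMNA, -0.16, -0.11 and 0.07 with LMNB1 and 0.04, 0.14 and -0.01 with LMNB2. The groups overlapped, and 7 of the 9 lamin libraries lay within the range of the GFP libraries. Taken by replicate number, each LMNB1 library lay below the LMNA library, but whether the numbers mark pairs is not known.

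**Figure D5:**
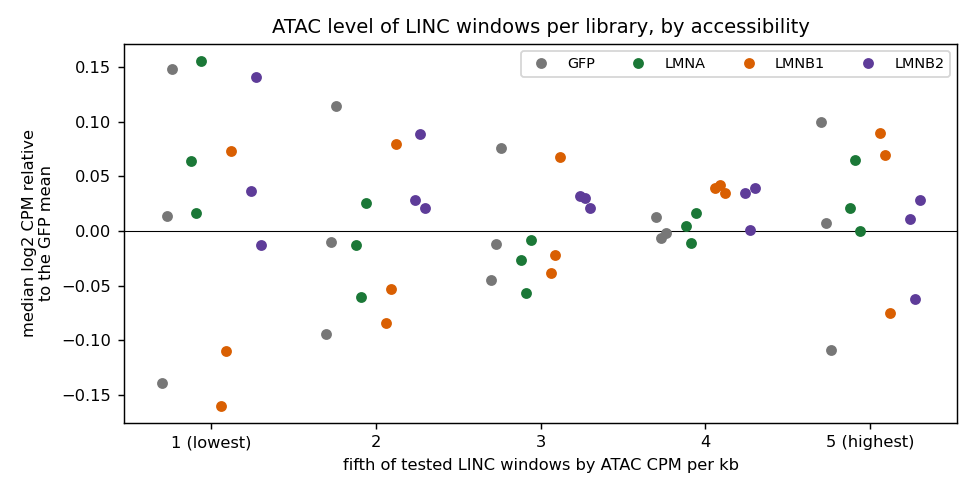
Median log2 ATAC CPM relative to the GFP mean (vertical axis) over tested LINC windows in 5 equal groups by CPM per kb (horizontal axis), 1 point per library. In the lowest group the LMNB1 points run from -0.16 to 0.07 and the LMNA points from 0.02 to 0.16, both within or close to the span of the GFP points from -0.14 to 0.15.

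The small RNA changes in LMNB2 were not accompanied by called changes of accessibility, but only 0.00244% of all windows were called in LMNB2. Each ATAC count sums a whole interval, so a change in a small part of it may not show. In ATAC, the windows of the 41 higher intervals had log2 fold changes of -0.29 to 0.16 in LMNB2, with a median of 0.00, and those of the 9 lower intervals -0.06 to 0.05. At LINC01534 the window held 21.6 ± 1.47 CPM in GFP and 21.0 ± 1.20 in LMNB2 (SD, n = 3), a difference smaller than the spread, and was 5.96 times as dense as its flanks. LINC01535 had 6.69 ± 0.429 and 7.37 ± 0.905 CPM. Across the 1724 intervals tested in both assays, levels per kb had a Spearman's rho of 0.68 as a description, and of 0.66 over the 1036 that overlap no other RNA. Intervals share reads and length enters both measures. Log2 fold changes had rho of 0.10, 0.14 and -0.04 for LMNA, LMNB1 and LMNB2, values too weak to read as a relation.

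Named groups of LINC genes known for a function showed no calls against GFP in either assay. Of 9 names reported to encode small proteins 3 are in the table, and of 6 linked to genome stability, chromatin or microRNA hosting 4 are. Of 16 studied in cancer or stress 14 are in the table, 7 of them tested in small RNA. LINC00665, a small-protein gene on chromosome 19, had 0.223, 0.184 and 0.406 CPM in GFP and 0.151, 0.135 and 0.174 in LMNB1 (-0.80 ± 0.28, edgeR adjusted p = 0.802). LINC00632, whose locus gives rise to the circular RNA CDR1as, had log2 fold changes of -0.37, 0.21 and -0.10. The stability and host list had a median of -1.06 in LMNB2 against -0.04 over all features, with 27 of its 54 intervals at an unadjusted p under 0.05 against 19.9% of all features, and intervals of 1 name overlap. At the interval with the most counts of each name, the log2 fold change was -1.37 in LINC00461, 0.09 in LINC01578, 0.09 in LINC00667 and -0.10 in LINC00632. LINC00461, the host of hsa-miR-9-5p, had 0.241, 0.581 and 1.35 CPM in GFP and 0.235, 0.313 and 0.284 in LMNB2, which overlap. The 4 names linked to pluripotency or endoderm (LINC00458, LINC00678, LINC01108 and LINC00261) had too few small RNA counts to be tested. In ATAC, 11 of their 36 windows had an unadjusted p under 0.05 in LMNA, against 5.19% of all windows and 6.62% of LINC windows, and none passed. Windows of 1 name overlap, so the 36 stand for 4 names. At the window with the most counts of each name, the log2 fold change in LMNA was 0.39 in LINC00458, -0.15 in LINC00678, 0.01 in LINC00261 and -0.0015 in LINC01108. Of these windows, only that of LINC00458 had an unadjusted edgeR p under 0.05 (0.0424).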

How the data were processed

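Small RNA and ATAC-seq were measured in 24 HEK293 libraries, 3 for each of 4 groups and 2 assays. The authors deposited raw counts per annotated interval, mapped to GRCh38 per the submitters' processing notes. The aligner, the counter and the filters are not given in the sources used here. By the values, small RNA counting did not separate strands, and ATAC counts cover each interval plus 125 bp on either side. Each library's group came from its title and labelled treatment.

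Low counts were removed with edgeR's filterByExpr, libraries were scaled by TMM, and all 12 libraries of an assay were fitted together with edgeR 4.0.16 (quasi-likelihood test, prior count 2) in R 4.3.3, with Benjamini-Hochberg adjustment over all tested features and a threshold of 0.05. DESeq2 1.42.0 and limma 3.58.1 were installed, and DESeq2 was an alternative. Other alternatives changed the scaling, the filter, the threshold, the libraries fitted or the replicate term. The steps were tested on simulated data with the same dispersion for all features and no changes placed in faint ones. That test does not cover changes at faint intervals or single libraries that depart from their group. CPM are counts per 1000000 of TMM-scaled library size. Total counts per library, 132507051 to 290158229, set the precision of single values, and limits from a count of 0 cover counting error only.

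The names given are, for each lamin against GFP, all called names or the 5 highest and 5 lowest by log2 fold change (1 interval per name, the one with the lowest p, with groups apart), or the 3 with the lowest p where none was called. The 10 highest per kb in each assay, up to 10 from the joint test and examples of named lists were added. Other called names are given after their values were seen. The members and lists were chosen with earlier results of these data known. Intervals were compared with RefSeq (GRCh38.p14) by symbol.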

Additional observations from a re-analysis of the deposited data

Results flagged for a closer look

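The lamins differed from each other, by edgeR's joint test over LMNA, LMNB1 and LMNB2 (Benjamini-Hochberg adjustment over all features of an assay), at 10 LINC names among those listed by lowest p in small RNA. The adjusted p was 3.33e-05 for LINC01534, 0.00184 for LINC02177, 0.00512 for LINC02641 and 0.00599 for LINC01535. It was 0.0161 for LINC00310, 0.0212 for LINC00664, 0.0220 for LINC01224, 0.0310 for LINC00895, 0.0314 for LINC00595 and 0.0388 for LINC01343. LMNB2 was the highest lamin in each. LINC01534 and LINC02177 passed in all 12 fits that left out 1 library, and LINC01224, LINC00895 and LINC01343 passed in 3 of 12.

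In ATAC the same test gave 0.0195 for LINC01720, 0.0287 for LINC02405, 0.0368 for LINC02578, 0.0383 for LINC02055, 0.0383 for LINC01320, 0.0397 for LINC01435 and 0.0478 for LINC02661. LMNA was the highest lamin in each, and none passed in more than 5 of the 12 fits that left out 1 library.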

How the results depend on the processing

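Counts of called LINC intervals moved with most choices, and none of the differences refitted for the called names and those with the lowest p changed sign. Other intervals named in the text were not compared across settings. In small RNA, LMNB2 against GFP (50) gave 11 with total counts only, 78 with no count filter, 0 with only the 6 libraries compared, 3 at an adjusted p under 0.01, 32 among members that overlap no other RNA and 2 to 100 when 1 library was left out. The joint test (37) gave 19, 88 and 16 with total counts only, no filter and the stricter threshold, and 9 to 124 with 1 library left out. With no filter LMNA gave 4, LMNB1 3 and LMNB1 against LMNA 7, and LMNA gave 0 to 4 with 1 library left out (4 without GFP replicate 3). In ATAC, total counts only gave 37 for LMNA, 6 for LMNB1, 6 for LMNB2, 5 for the joint test and 0 for LMNB1 against LMNA. DESeq2 gave 6, 4 and 6 against GFP and 107 for the joint test. At an adjusted p under 0.01 the joint test gave 0 and LMNB1 against LMNA 6. With 1 library left out LMNA gave 0 to 45, the joint test 0 to 165 and LMNB1 against LMNA 0 to 230. With total counts only the median log2 fold change was 0.12 for LMNB1 and 0.25 for LMNB2 in small RNA and 0.15 between LMNB1 and LMNA, and 0.092, 0.18, 0.13 and 0.10 in ATAC for LMNA, LMNB1, LMNB2 and LMNB1 against LMNA. With 1 library left out, small RNA medians ran from -0.11 to 0.038 (LMNA), -0.061 to 0.060 (LMNB1) and 0.00022 to 0.12 (LMNB2). Correlations of same-numbered replicates with GFP ran from -0.19 to 0.52, and for ATAC LMNB1 they were 0.38, 0.05 and 0.52. Correlations between LMNA and LMNB1 libraries were not computed. The main fits did not read the numbers as pairs, and whether they mark pairs is not known. With the replicate block, small RNA LMNB2 gave 46 and the joint test 39, and ATAC gave 2 for LMNA, 81 for the joint test and 141 for LMNB1 against LMNA. The cause of these movements was not tested. Faint intervals such as LINC00664, at 2 to 4 counts in a GFP library, limit what this depth can show.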

Other observations

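Some LINC intervals had high small RNA counts in only 3 libraries. LINC01117, which contains MIR1246, had 803 counts in GFP replicate 3, 569 in LMNA replicate 3 and 323 in LMNA replicate 1, against 20 to 41 in the other 9 libraries. A LINC02177 interval beside the one called in LMNB2 (chr16:9542020-9614924) had 541, 399 and 425 counts in the same libraries and 14 to 55 elsewhere. LINC01830 had 865, 770 and 253 against 43 to 80, and LINC02128, which draws its count from a 5S ribosomal RNA feature, had 4141, 2033 and 1151 against 232 to 504. LINC02565 had 605 and 759 counts in GFP replicate 3 and LMNA replicate 3 and 25 to 53 in the other 10. None of these intervals was called in any lamin by edgeR. GFP replicate 3 also had the highest share of counts in LINC intervals (0.489%), and the part of these libraries in any result was not tested beyond leaving each out.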
